A study of Drosophila melanogaster with 3 samples.

Results

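The peaks described here are sites where tagged Grauzone protein was recovered from fly embryo chromatin and where the point source, the single base that the peak caller placed at the summit, fell inside an annotated exon and away from annotated transcription starts. A peak was counted when its point source lay in a 5′ UTR, coding, 3′ UTR or noncoding exon of the Ensembl annotation, without pseudogenes and transposable elements, and more than 500 bp from every annotated transcription start. Of the 9624 peaks in the authors' reproducible list, 278 met the rule and are called exonic peaks here, or 2.89% (95% Wilson interval 2.57 to 3.24%, counting error only). They comprised 45 peaks in 5′ UTRs, 32 in coding sequence, 103 in 3′ UTRs and 98 in noncoding exons, with a point source under several annotations assigned in that order. The remainder of the list held 4130 peaks within 500 bp of a start, in exons or not, 3712 in introns and 1504 between genes. The study has 1 group, Drosophila melanogaster embryos of mixed sex collected from 0 to 24 h, from a transgenic line that stably carries grau with GFP fused to its C terminus, in 3 biological replicates immunoprecipitated with an antibody to GFP. Every sample therefore carries the transgene and comes from the same line, and the embryos of all stages and both sexes were pooled. The labels list a possible control experiment, which is not analysed here. The tagged protein was mapped in whole embryos, so the cells that carry a given peak cannot be told apart. Sequencing depth is unknown, because the peak lists give no read totals.

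Grauzone, the product of grau, is a zinc-finger transcription factor with the ZAD domain found in many insect zinc-finger proteins, and it is known for activating cortex (cort), a gene whose product is needed to complete female meiosis. Transcription factors are most often mapped to promoters, introns and intergenic enhancers. An exon position is ambiguous in a compact genome, since one stretch of DNA can be the untranslated region of one transcript, an intron of another transcript of the same gene, and a promoter or enhancer of another gene. Coding exons are in addition held to a base composition set by the codons they use, which is richer in G and C than that of introns.

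The sequences below are 30 bases of the dm6 reference (RefSeq assembly) around the point sources of 3 of the strongest peaks in each of the 4 classes, and they are shown because base composition at the point source differed between the classes. They are the 3 strongest of their class except in coding sequence. There the stronger peaks in Tsp42Ee, otp and Ehbp1 are left out, because no sequence from their chromosome arm is printed here. Within 50 bp of the point source these have a GC content of 43.6%, 62.4% and 51.5%. Windows 500 bp away have 49%, 40.1% and 29.2%, so the strongest coding peak, in Tsp42Ee, is below its surroundings and the peaks in otp and Ehbp1 are above. All sequences shown are given 5′ to 3′ on the plus strand of the genome. The point source is base 16, and capitals mark runs of at least 6 bases that are only A or T.
Ask1 (5′ UTR, chr3R:19880550-19880579): actagtcttcctttagcaaattgcaaaaga
Raf (5′ UTR, chrX:2296312-2296341): tacaaatcgcagTATTTAcctggcaaacgt
dos (5′ UTR, chr3L:2590806-2590835): gttacagcaaacccactttatggtttcact
CG10962 (coding, chrX:8973320-8973349): ccagcttggccttcgtttcgtccggaacga
Pde1c (coding, chr2L:11816564-11816593): cgcagcgccatctgccggctccgcagctgg
raskol (coding, chrX:17739319-17739348): acagcagacacaggaaacagtgaaagcccg
CG7872 (3′ UTR, chrX:15579779-15579808): acAAAAAAAgcacgccacattcgcgtgttt
Tctp (3′ UTR, chr3R:11211789-11211818): tagggcgaacggcgatattgtctgatgttc
Cals (3′ UTR, chr4:1113309-1113338): taccctttcaaaaactgctgcaatatgctt
lncRNA:Vinr (noncoding exon, chrX:12751308-12751337): ttgAAATATAAATTTTgATATATgccaatc
lncRNA:CR44619 (noncoding exon, chrX:12754512-12754541): ctaactataccATAAAAcAAATTAAgaaaa
lncRNA:CR44517 (noncoding exon, chrX:9141383-9141412): agaaattcatggaaagaaattctagctaca
The coding sequences shown are 23.3% to 46.7% A and T, and none of the 3 has a run long enough to be capitalised. The noncoding exon sequences are 70.0% to 80.0% A and T. Within 50 bp of the point source, however, lncRNA:CR44517 has a GC content of 44.6%, above the 33.7% of windows 500 bp away. For lncRNA:Vinr the pair is 26.7% and 46.5%, and for lncRNA:CR44619 it is 23.8% and 53.5%. In lncRNA:Vinr the A and T run reaches 13 bases, and in the Pde1c coding exon no such run exceeds 2 bases.

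Exons away from starts carried few peaks for their length, and coding sequence carried the fewest of the classes compared. Coding sequence more than 500 bp from a start covers 18.4 Mb, or 13.8% of the sequence considered, and held 1.74 point sources per Mb in the reproducible list. In the strongest 9624 peaks of each replicate the coding density was 2.07, 2.18 and 1.52 per Mb in replicates 1, 2 and 3 (mean 1.92 ± 0.35, SD, n = 3), against 69.2 ± 3.23 per Mb in introns. This difference was -5.19 ± 0.34 on the log2 scale, and the replicates of the 2 classes did not overlap. The 3′ UTR density was 16.5, 16.7 and 16.0 per Mb, which was -2.08 ± 0.09 (SD, n = 3) on the log2 scale relative to introns. The 5′ UTR density was 52.7, 46.9 and 37.3 per Mb, below introns in every replicate with a log2 difference of -0.61 ± 0.32, and above intergenic sequence in replicates 1 and 2 but below it in replicate 3. Noncoding exons were the exception. They held 90.4, 85.5 and 89.4 point sources per Mb, which was 0.36 ± 0.08 above introns on the log2 scale, and higher in each of the 3 replicates. With 3 replicates an exact two-sided sign-flip permutation test cannot give a p below 0.25, and each of these comparisons with introns gave p = 0.25. Over the 42 such comparisons computed across replicates the smallest Benjamini-Hochberg adjusted p was 0.328, so none passes a threshold of 0.05, and 32 of the 42 had the same direction in all 3 replicates. The labels call the replicates biological and do not say how the embryos were collected, so these tests measure the spread between the samples as labelled. Noncoding exons beyond 500 bp of every start amount to only 1.02 Mb, and sequence that is also a UTR or coding was counted in those classes first.

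**Figure D1:**
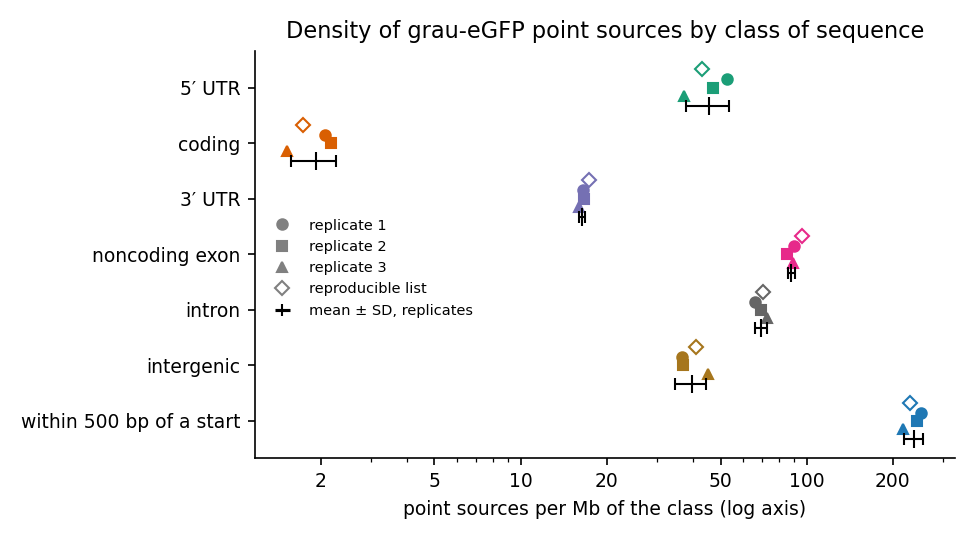
Point sources per Mb of sequence in each class (log axis), for the strongest 9624 peaks of each replicate (filled symbols), their mean ± SD (n = 3) and the reproducible list (open diamonds). Coding sequence sits lowest at 1.52 to 2.18 per Mb, noncoding exons at 85.5 to 90.4 per Mb lie above introns, and sequence within 500 bp of a start is highest.

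The share of peaks in coding exons depended on how strong the peaks were. Each replicate list holds 30000 peaks ordered here by the authors' signal, a value that can be compared only within a list. Coding exons took 0.433%, 0.300% and 0.200% of the strongest 3000 peaks in replicates 1, 2 and 3, and 4.83%, 7.37% and 4.50% of the weakest 3000, ranks 27001 to 30000. The mean thus went from 0.311% ± 0.117 to 5.57% ± 1.57 (SD, n = 3), and the lowest share among the weak peaks was above the highest among the strong ones. The 3′ UTR share went from 0.733% ± 0.033 to 2.87% ± 0.86 and the 5′ UTR share from 0.456% ± 0.039 to 1.12% ± 0.17, both higher among the weak peaks in each replicate. Noncoding exons showed no such shift, at 1.08% ± 0.05 among the strongest and 1.20% ± 0.15 among the weakest, with replicate 1 lower and replicates 2 and 3 higher at the weak end. A higher share among the weak peaks was not particular to exons. The intron share went from 37.7% ± 1.2 to 48.6% ± 2.06 and the intergenic share from 11.4% ± 0.38 to 21.8% ± 2.99. Both were higher at the weak end in each replicate. Peaks within 500 bp of a start moved the other way, from 48.3% ± 1.67 to 18.9% ± 1.16. The exact sign-flip p was 0.25 for each of the first 3 exon classes, the smallest that 3 replicates allow, and 0.5 for noncoding exons. Even among the weakest peaks the coding share stayed under the 13.8% of sequence that the class covers.

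**Figure D2:**
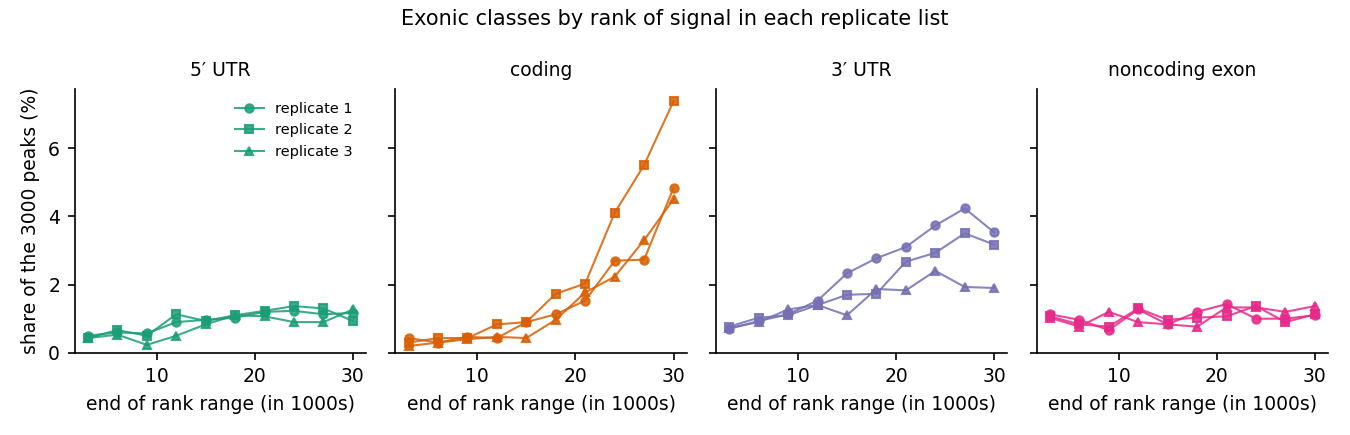
Share of each successive set of 3000 peaks that falls in each exon class (%, y axis) by the rank at which the set ends (x axis), with 1 line per replicate list. The coding line climbs from under 0.5% to between 4.50% and 7.37%, while the noncoding exon line stays near 1% throughout.

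Noncoding exons held the strongest of the 278 peaks. Of the 98 peaks, 88 lay in genes named as long noncoding RNAs and 10 in genes named as antisense RNAs. For 47 the exon was the only one of its transcript, although the gene can have other transcripts with several exons. The highest signal was in lncRNA:Vinr (chrX:12750700-12752631), a long noncoding RNA of the fly immune response, with a reproducible-list signal of 11455.9 at rank 19. Its signal was 3593.5, 2721.2 and 5168.0 in replicates 1, 2 and 3, and it ranked 34, 25 and 4 in those lists. The next member by signal, in the last exon of the neighbouring lncRNA:CR44619 (chrX:12753916-12754777), had a signal of 6546.3 at rank 96 and ranked 108, 84 and 106. Both were thus among the strongest 108 of 30000 peaks in each replicate. The point source in lncRNA:Vinr was 544 bp from its nearest start, that of lncRNA:CR44619, so it lay just beyond the 500 bp limit.

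The other members of the strongest 5 in this class were in lncRNA:CR44517 (signal 4642.9), lncRNA:CR46035 (4492.2) and lncRNA:CR44357 (4388.1). The lncRNA:CR46035 peak (chr3R:17704112-17704669) also lies inside an intron of osa, which encodes a subunit of a Brahma chromatin remodelling complex, and the lncRNA:CR44357 peak (chrX:7166148-7166812) inside an intron of Cph, which encodes a zinc-finger protein. An intron of another gene covered 33 of the 98 noncoding exon peaks, and for 24 of those 33 every such gene was on the opposite strand. An exon of a noncoding RNA and an intron of the surrounding gene cannot be told apart as the annotated home of such a peak. Noncoding RNA genes are often short, and a gene whose exons all lie within 500 bp of a start cannot hold a peak under the rule: the median length was 558 bp over all 3261 noncoding RNA genes and 2067 bp over the 77 that held one.

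The 3′ UTR peaks were the most numerous and the weakest class by median signal. Their median signal was 334.0 in the reproducible list, beside 436.4 for intronic and 468.7 for promoter peaks. In replicates 1, 2 and 3 the log2 ratio of the median signal to that of intronic peaks was -0.272, -0.252 and -0.337, all lower. Of the 103 point sources, 78 lay in a last exon and 17 in an only exon, at a median of 548 bp from the annotated end of the host gene. The strongest was in CG7872 (chrX:15579505-15580096, signal 4668.4), with 1856.3, 1337.5 and 1492.5 in the 3 replicate lists. The next was in Tctp (chr3R:11211331-11212183, signal 4098.1), which encodes the growth regulator translationally controlled tumour protein, with 1670.6, 1201.7 and 1238.5. In these 2 genes the point source lay 63 and 94 bp from the end of the gene, and 59.6% and 66.6% of the peak interval was exonic, so the peak straddles the 3′ end in each. Cals, which encodes a calsyntenin, held a peak of signal 1933.4 and the sole exonic peak on chromosome 4. CG5984 followed with a signal of 1903.7, its point source 10 bp from the end of the gene, and eas, which encodes an ethanolamine kinase, with 1874.6. The nearest start belonged to the host gene for 50 of the 103, and for eas it was that of the neighbouring UQCR-14, 905 bp away. For 62 of the 103 some transcripts of the host end or begin short of the point source, so that the position is 3′ UTR only in part of the annotated transcripts. The gene downstream was convergent and within 1000 bp for 29 of 100 host genes (29.0%, Wilson interval 21.0 to 38.5%), beside 24.4% of all 13534 protein-coding genes with a 3′ UTR, and the interval includes that value.

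The 5′ UTR peaks had the highest median signal of the exon classes, 500.3, and most of them were intronic in another transcript. An intron of another transcript of the same gene covered 29 of the 45 point sources (64.4%, Wilson interval 49.8 to 76.8%), against 7 of 32 in coding sequence and 11 of 103 in 3′ UTRs. The interval counts each point source as separate, although some of the 29 share a gene. The strongest was in Ask1 (chr3R:19880299-19880921, signal 3044.5), which encodes a kinase upstream of the stress-activated JNK and p38 pathways. Its signal was 1412.0, 782.6 and 855.1 in replicates 1, 2 and 3, and it ranked 289, 444 and 636. The point source is in an internal exon of 1 of the 2 Ask1 transcripts and in an intron of the other. Raf, which encodes the kinase of the Ras pathway, held a peak of signal 2396.4 that ranked 732, 789 and 415. Its point source is in an exon of 200 bp, and 37.9% of the peak interval is exonic. The dos gene, which encodes an adaptor protein of receptor tyrosine kinase signalling, held a peak of signal 2226.4, and Fbl6 and CG15247 completed the strongest 5 with 1713.9 and 1671.8. The ranks of dos, 435, 601 and 1341, show the spread of a single peak across the lists. The nearest start was under 1000 bp away for 28 of the 45 peaks, beside 11 of 103 in 3′ UTRs, and belonged to the host gene for 37.

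The 32 coding peaks were ordinary in signal and were matched in each replicate. Their median signal was 397.0, with a lowest value of 218.5 and a highest of 2625.5. The strongest was in Tsp42Ee (chr2R:7012707-7013403), which encodes a tetraspanin membrane protein, with 1132.7, 800.9 and 706.3 in replicates 1, 2 and 3. The exon under this point source is 84 bp long and only 12.1% of the 697 bp interval is exonic, so the peak is mostly intronic sequence. The peak in otp (chr2R:20884390-20884814, signal 2293.3), which encodes a homeodomain protein of the nervous system, had 777.9, 697.1 and 823.5, and 87.5% of its interval is exonic. It ranked 709, 528 and 671, and its point source was 4675 bp from the nearest start. CG10962, Pde1c, which encodes a cyclic nucleotide phosphodiesterase, and Ehbp1, which encodes an adaptor of vesicle trafficking, had signals of 1238.6, 1160.5 and 931.7. Internal exons held 19 of the 32 point sources. The whole interval was exonic for 10 of the 32 (31.2%), beside 76 of 103 in 3′ UTRs and 67 of 98 in noncoding exons, and the median coding exon hit was 335 bp long, shorter than the median interval of 355 bp.

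**Figure D3:**
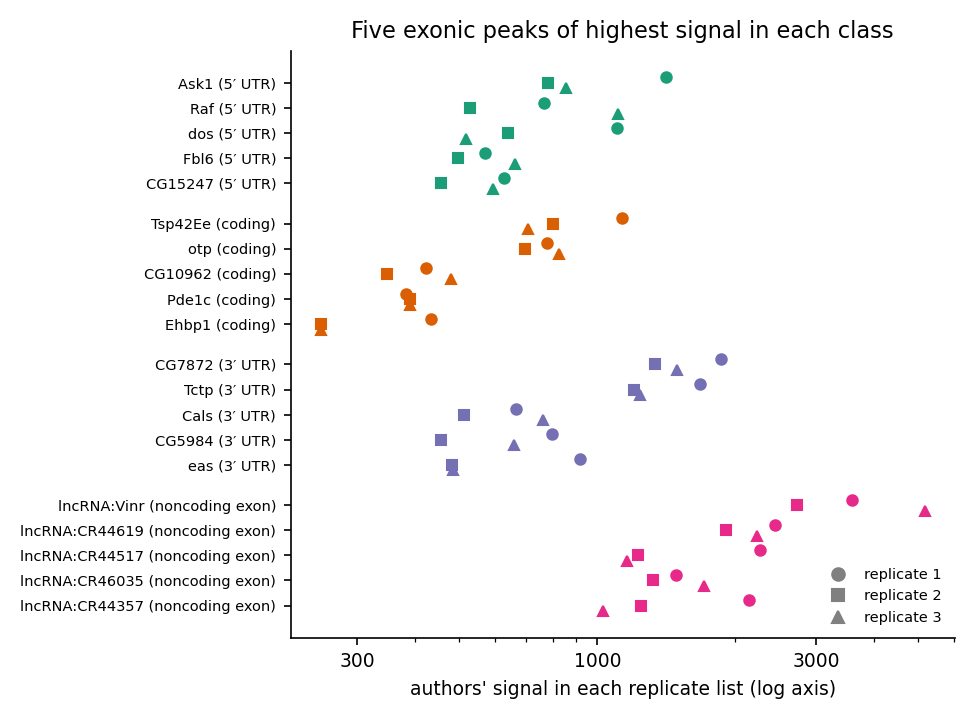
The authors' signal (log axis) of the 5 strongest exonic peaks of each class in each replicate list. The lncRNA:Vinr peak reaches 2721.2 to 5168.0, and each coding peak shown is below 1200, with symbols of the same list comparable between genes and symbols of different lists not.

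Base composition at the point source separated the coding peaks from the others. In the reproducible list as a whole the window of 50 bp to each side of the point source had a lower GC content than the windows of the same size centred 500 bp away on both sides (the flanks) for 79.3% of peaks. This held for 178 of the 278 exonic peaks (64.0%), for 82 of 98 in noncoding exons, for 66 of 103 in 3′ UTRs, for 23 of 45 in 5′ UTRs and for 7 of 32 in coding sequence. In noncoding exons the median GC content was 29.2% at the point source and 44.6% in the flanks, and the class as a whole has 41.2%. Intronic peaks showed a similar pair, 30.7% and 42.1%. In coding sequence the median was 53.5% at the point source and 41.3% in the flanks. Among the strongest 9624 peaks of each replicate the coding median exceeded that of the other 3 exon classes together by 17.8, 19.3 and 24.3 percentage points in replicates 1, 2 and 3 (exact sign-flip p = 0.25, the smallest possible).

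The coding value is close to the average of coding sequence away from starts, 53.4%, so the coding point sources had the GC content of their class. The flanks were often outside the exon: both flank centres were exonic for 8 of the 32 coding peaks, 1 for 12 and neither for 12. Of the 17 coding peaks whose exon had at least 200 bp outside the window, 3 had a GC content below that of the rest of the exon. In a first or last exon that rest can include untranslated sequence, and its coding part was not compared alone. In noncoding exons 84 of 96 were below the rest of their exon (87.5%), and the point source median of 29.2% was under the 41.2% of the class. In 3′ UTRs 76 of 102 were below the rest of their exon (74.5%), which in a last or only exon can include coding sequence, and the median of 34.7% at the point source was close to the 35.2% of the class. The 5′ UTR peaks lay between, with 22 of 40 below and a median of 40.6% at the point source, 40.1% in the flanks and 45.7% in the class. GC content also affects amplification and sequencing of ChIP libraries, and its part in these differences was not tested.

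**Figure D4:**
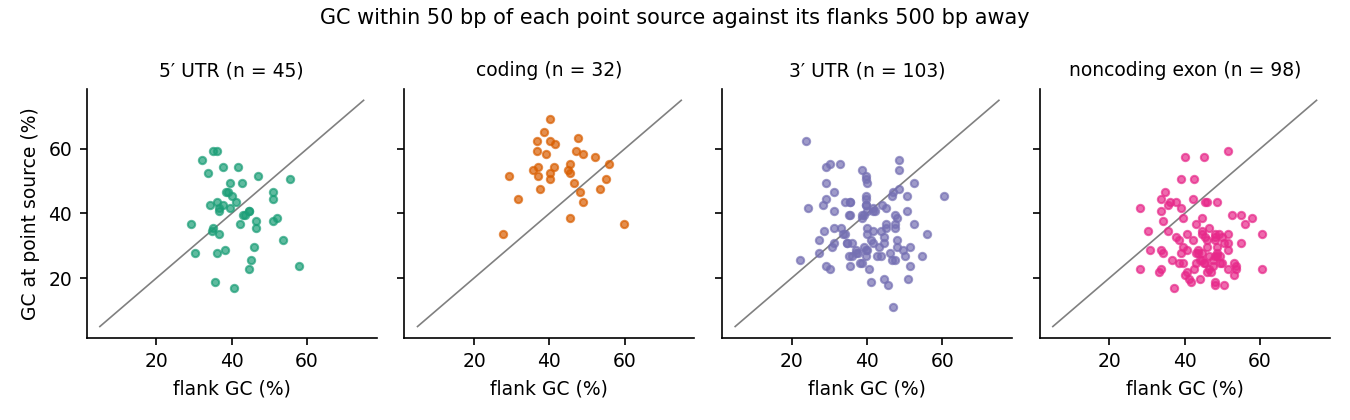
GC content within 50 bp of each point source (%, y axis) against the mean of its flanks 500 bp away (%, x axis), with 1 point per peak and the line of equality. Of the 32 coding peaks 25 lie above the line, and of the 98 noncoding exon peaks 82 lie below it.

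**Figure D5:**
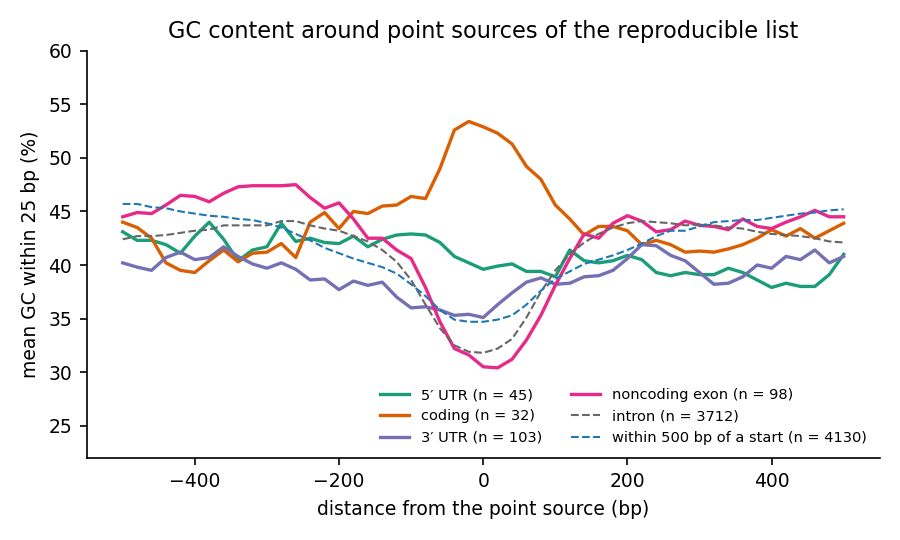
Mean GC content in windows of 25 bp to each side (%, y axis) by distance from the point source (bp, x axis) for the 4 exon classes, introns and sequence within 500 bp of a start in the reproducible list. The noncoding exon profile dips at the point source with that of introns, the 3′ UTR profile dips less, to 35.1%, and the coding profile rises there. The 5′ UTR profile slopes down across the range, with 44.0% at -380 bp, 39.6% at the point source and 37.9% at 400 bp.

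Short A and T words were found at point sources in each exon class except coding sequence. The 10 words of 8 bases with the largest excess at the point source over a flank were chosen on the 9346 other peaks of the list, which include those within 500 bp of a start, and each consists only of A and T. They were AAAAATAT, TTTAAAAA, AAATATAT, AAAATATT, ATTTTAAA, ATTTAAAA, TATTTAAA, TATTTTAA, AAATAAAT and ATTTTTAA, searched on both strands, and they overlap one another. At least 1 of them occurred within 50 bp of the point source in 34.6% of those peaks, and in 75 of the 278 exonic peaks (27.0%, Wilson interval 22.1 to 32.5%), against 12.2% of flank windows. The shares were 33.7% in noncoding exons (Wilson interval 25.1 to 43.5%), 31.1% in 3′ UTRs (22.9 to 40.5%) and 22.2% in 5′ UTRs (12.5 to 36.3%). These intervals overlap, and intronic peaks had 33.5%. None of the 32 coding windows held one, which allows a share of up to 9.38%. Of their 32 flank windows 3 did, also 9.38%, so the coding windows cannot be told from their flanks by this count. Words made only of A and T restate the GC content of each class, so they are not a separate measure of a difference between classes. Of 12 motifs spelled out for other fly factors and for repeats, TATCGATA, the element recognised by the factor DREF, was in 1 exonic window (0.360%), beside 162 of the 9624 peaks in all (1.68%). That list share lies within the Wilson interval of the exonic one, 0.0635 to 2.01%, and the exonic flanks also had 0.360%. TATAAA was in 44 exonic windows (15.8%), beside 23.9% in the whole list, and in 21 of the 98 noncoding exon windows (21.4%). AAAAAAAA was in 6.83% of exonic windows and 7.19% of their flanks. CGATA, the core of that element, was in 35 exonic windows (12.6%), beside 15.4% in the whole list and 10.8% of the exonic flanks. GCATACTTT was in 1.08% of exonic windows and 0.436% of the whole list, with 3 exonic windows holding it. The Wilson interval of the exonic share, 0.368 to 3.12%, includes the list share. CANCNCTA was in 3.24% against 3.69%, AGGNGGC in 2.88% against 2.02% and GAGAGAG in 1.44% against 1.04%, each list share lying within the Wilson interval of the exonic one. Single exonic windows (0.360%) held CAGGTAG, found in 0.488% of the list, CACGTG, found in 0.675%, and CACACACA, found in 1.11%. GGTCACACT was in none, which allows a share of up to 1.08%, and the 0.842% of the list lies under that limit. A match is a string of letters and not a site, and the absence of a match speaks only for these letters in this window.

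The exonic peaks were found in the replicates about as often as the rest of the list. A point source within 100 bp was present in all 3 replicate lists for 250 of the 278 (89.9%, Wilson interval 85.8 to 92.9%), and for 88.9% of all reproducible peaks. The count was 32 of 32 in coding sequence, 40 of 45 in 5′ UTRs, 88 of 103 in 3′ UTRs and 90 of 98 in noncoding exons. The reproducible list was itself selected for agreement between replicates, so a high share is built into it. The difference from the other 9346 peaks of the list was 2.49, -0.52 and -0.62 percentage points in replicates 1, 2 and 3, and so had no common direction (exact sign-flip p = 1). For coding peaks it was 4.29, 3.43 and 4.42 points (exact sign-flip p = 0.25), the most that complete matching allows. The matched point source was a median of 10 bp away in each of the 3 lists. Among the 1000 peaks of highest signal were 24 of the 278 (8.63%), beside 10.4% of the whole list.

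Only 2 exonic peaks were matched in a single replicate. A 3′ UTR peak in Cam, which encodes calmodulin, had a counterpart 1 bp away in replicate 3, while the nearest point sources in replicates 1 and 2 were 2864 and 1068 bp away. The second lncRNA:CR32385 peak was 5 bp from a point source of replicate 1, and 108 and 136 bp from those of replicates 2 and 3, beyond the 100 bp limit. It lies 206 bp from a stronger peak in the same exon, whose nearest point sources were 0, 98 and 70 bp away in replicates 1, 2 and 3, so that replicates 2 and 3 each held a point source between the 2 peaks that was matched to the stronger one. Close pairs of this kind were common: 36 of the 278 point sources had another reproducible point source under 250 bp away (12.9%), beside 10.6% of the whole list, and the closest was at 199 bp. The intervals of 37 exonic peaks overlapped that of another reproducible peak, so the 278 are not all separate regions.

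Exonic peaks were more often on the X chromosome than the list as a whole. The X held 79 of the 278 (28.4%), beside 19.8% of all reproducible peaks and 19.1% of the exon sequence considered. In the strongest 9624 peaks of each replicate the X share of exonic peaks was 25.4%, 25.8% and 27.3%, which was 6.76, 7.11 and 7.51 percentage points above that of the other peaks (exact sign-flip p = 0.25). The 3′ UTR class had the highest share, 37 of 103 (35.9%), where the X has 23.5% of the sequence of the class, and its X share was 36.7%, 37.4% and 34.7% in the replicate lists. Intronic peaks were also high at 24.5%, for 19.3% of the sequence, while intergenic peaks at 14.1% were near their 14.5%. No exonic point source fell in an annotated transposable element, which allows a share of up to 1.08%, and the 0.249% of the whole list (24 peaks) lies under that limit; transposable elements were also left out of the exon annotation.

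Genes with an exonic peak often had a promoter peak as well. Of the 168 protein-coding host genes, 60.1% (Wilson interval 52.6 to 67.2%) also had a reproducible peak within 500 bp of one of their starts, beside 32.1% of all 13945 protein-coding genes. The share was 27 of 40 hosts in the 5′ UTR class, 20 of 32 in the coding class and 56 of 100 in the 3′ UTR class. Among the 1482 protein-coding genes with an intronic peak it was 61.9%, within the interval of the exonic hosts. Host genes were longer than average: the median length was 18885.5 bp in the 5′ UTR class, 14084.5 bp in the coding class and 4629.0 bp in the 3′ UTR class, beside 2166.0 bp over all protein-coding genes, and the part of length in the difference was not tested. Of the 77 noncoding host genes 18 had a promoter peak (23.4%, Wilson interval 15.3 to 34.0%), beside 11.6% of all noncoding RNA genes.

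Several exonic peaks in 1 gene were found in 28 genes, which together held 67 of the 278. The largest set was in lncRNA:CR43334, with 7 peaks over 11385 bp of chromosome 3L. This RNA contains mir-ban, the gene of the growth-promoting microRNA bantam, and the 7 point sources lay between 12837 and 1452 bp upstream of it. The strongest had a signal of 3204.1 at rank 378, with 1380.3, 886.9 and 963.1 in replicates 1, 2 and 3, and the weakest 255.9 at rank 7940. All 7 were matched in each replicate. The eas gene held 3 peaks, of which 2 were in its 5′ UTR, 203 bp apart, and 1 in its 3′ UTR. The by gene, which encodes the focal adhesion protein tensin, held 3 in its 3′ UTR with signals of 1166.8, 379.0 and 209.8. The baz gene, which encodes the polarity protein Par-3, held 3 in its 5′ UTR with signals of 349.5, 335.5 and 301.1, close to one another. The others with 3 peaks each were lncRNA:CR44603, asRNA:CR44018 and lncRNA:CR46006, with strongest signals of 844.7, 385.5 and 365.2. Of the genes with 2 peaks the strongest were lncRNA:CR44365 (2818.9), dos (2226.4) and lncRNA:CR32385 (1488.2), and in the last 2 the peaks were 206 bp apart.

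Of 12 lists of developmental and regulatory genes, 8 had a gene with an exonic peak and none had more than 2. Over the genome 168 of 13945 protein-coding genes (1.20%) and 77 of 3261 noncoding RNA genes (2.36%) held one. The Hox and segmentation list had 2 of 35 annotated genes. These were hth, which encodes a homeodomain cofactor of Hox proteins, with a 5′ UTR peak of signal 463.9, and inv, which encodes a homeodomain protein related to engrailed, with a 3′ UTR peak of 264.3. The muscle list had 2 of 23, the myogenic factor gene Mef2 with a 5′ UTR peak of 1188.7 and how, which encodes an RNA-binding protein, with a 3′ UTR peak of 290.3. The ecdysone and nuclear receptor list had 2 of 23, Hr3 and Hr4, with 3′ UTR peaks of 457.2 and 453.9. Mef2 was the strongest of the listed genes and ranked 1528, 1455 and 1921 in the replicate lists. The other lists with a gene had 1 each. Of 24 annotated neuronal genes it was elav, which encodes a neuronal RNA-binding protein, with a 3′ UTR peak of 240.9. Of 24 maternal mRNA control genes it was exu, which acts in bicoid mRNA localisation, with a 3′ UTR peak of 258.6. Among 20 cell cycle genes, E2f1 had a 5′ UTR peak of 296.0. Among 28 growth signalling genes, aos, which encodes a secreted inhibitor of the EGF receptor, had a coding peak of 652.6. Among 10 long noncoding RNA genes, lncRNA:Hsromega, the heat-inducible nuclear speckle RNA, had a peak of 327.3. No exonic peak lay in the 20 Notch pathway genes, the 18 insulator and ZAD genes, the 21 Polycomb and trithorax genes or the 17 heat shock genes annotated. Neither cort nor grau held an exonic peak away from starts: the nearest was 317579 bp from cort, in CG9500, and 125159 bp from grau, in otp.

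The 500 bp limit cut through a continuous range of distances. The median distance to the nearest start was 1270.5 bp over the 278 peaks, from 502 to 21585 bp, and 98 of them (35.3%) were under 1000 bp. Just beyond the limit lay peaks in lncRNA:CR45668 at 502 bp with a signal of 207.1, in lncRNA:CR44363 at 502 bp with 2372.4 and in lncRNA:CR45166 at 503 bp with 919.6. Just inside, and so not counted, lay peaks with a point source in an exon of lncRNA:CR43932 at 500 bp with a signal of 2691.1, in lncRNA:CR43704 at 494 bp with 698.1 and in lncRNA:CR44667 at 494 bp with 236.1. All 6 were in noncoding RNA genes, and strong and weak peaks stood on both sides. For 174 of the 278 the nearest start was a start of the host gene. The point source was exonic in every annotated transcript of the host for 130 of the 278 (46.8%), and an intron of another transcript or gene covered 102 (36.7%).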

How the data were processed

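ChIP-seq was done on 3 biological replicates of 1 group of embryos, with fragments of 200 to 800 bp per the labels. The authors deposited 1 list of 30000 peaks per replicate, 1 of 30000 for the pooled replicates and a reproducible list of 9624, with dm6 coordinates per the labels. The signal of a peak, its −log10 q-value and its point source are the authors' own; the deposited −log10 q-value is the same for all 9624 reproducible peaks and was not used. The labels name the antibody target as grau and the antibody as one to GFP. The aligner, the peak caller and the threshold of the reproducible list are not given in the sources used here, and a list of fixed length holds weak peaks whatever the data.

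Point sources were classed with the Ensembl release 115 annotation (23307 distinct starts) and the RefSeq dm6 genome, by scripts in Python 3.11.15 with numpy 2.4.6, pandas 2.3.3 and scipy 1.17.1 that were tested on simulated data. Densities used the strongest 9624 peaks of each replicate. Peaks were matched by nearest point source within 100 bp. Replicate differences were tested by exact two-sided sign-flip permutation. Shares have 95% Wilson intervals, which give counting error only and treat each peak as separate, although some peaks share a gene or overlap. A share of 0 was given the limit of 3 counts. Named genes are the hosts of the 5 strongest peaks per class, peaks nearest the 500 bp limit, listed genes, cort and grau, hosts matched in at most 1 replicate and up to 10 genes with several peaks; mir-ban, and raskol for its sequence, were added.

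The members and lists were chosen with earlier results of these data known. The X share, the trend with rank, the coding against other exon GC content, the GC content of the rest of the exon, the arrangement of 3′ UTR hosts, promoter peaks and lengths of hosts, the count of any word, close pairs, overlapping intervals, transposable elements and the share among the strongest 1000 were computed after values had been seen. Words of other lengths were also looked at.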

Additional observations from a re-analysis of the deposited data

How the results depend on the processing

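The density of exonic relative to intronic peaks kept its direction under all 7 alternatives. The GC difference from the flanks was -8.42 percentage points for 5′ UTR, 3′ UTR and noncoding exon peaks in a single set. This difference was negative under all 4 alternatives, from -9.8 to -6.72. It does not describe each class, and the alternatives were not run by class. In 5′ UTRs the medians were 40.6% at the point source and 40.1% in the flanks, with 23 of 45 peaks below their flanks. The share of peaks in exons (2.89%) was 4.15% with a limit of 250 bp, 1.87% with 1000 bp, 3.73% with protein-coding starts only, 2.45% with canonical transcripts, 1.87% with coding and UTR exons only, 2.60% in the stronger part of the list (4812 peaks) and 5.26% in all pooled peaks; leaving out each replicate gave 2.86 to 2.94%. The share matched in all 3 lists (89.9%) was 70.1% within 50 bp, 95.7% within 250 bp, 95.3% by any overlap and 62.6% in the strongest 9624 of each list, and 91.4 to 94.6% without each replicate. The log2 signal ratio of exonic to intronic peaks (-0.11) was 0.0629 against intergenic peaks in place of intronic ones, a reversal of direction. The median per-peak GC difference of coding peaks from their flanks (11.4 percentage points) was 9.80 with a window of 25 bp to each side, 7.46 with 100 bp, 13.1 with flanks at 300 bp and 16.3 at 1000 bp, positive in each. The cause of these shifts was not tested. Motif and word shares were not recomputed for other windows. With 1 group no comparison between groups was possible. The differences between classes were taken within each replicate, which pairs the classes by replicate. Depth is unknown, so it sets no limit that can be stated here.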
